A study of Bos taurus with 60 samples.

Results

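The rows bta-miR-2887, bta-miR-2889, bta-miR-2892 and bta-miR-2904 of the deposited miRNA count table are described here, 4 of its 608 rows. They were chosen by their wide spread between libraries, so their levels, their spread, the way they vary together and their relation to library depth are given as descriptions, with no test. Small RNA was sequenced from 3 small intestinal regions (duodenum, proximal jejunum and distal jejunum) and 3 hindgut regions (cecum, spiral colon and descending colon) of 10 British × Continental feedlot steers. The 5 super-shedders (SS) had been picked for a high fecal load of E. coli O157, and the 5 non-shedders (NS) were pen-mates that tested negative for it. Most of the SS were still positive at slaughter but below the super-shedder level. Every steer gave 1 library per region, which makes 60 libraries with 5 SS and 5 NS in each region, and the steer is the replicate.

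A miRNA is a short RNA cut out of a hairpin precursor and loaded onto an Argonaute protein, where its seed pairs with target mRNAs and lowers their translation and stability. In gut tissue, miRNA profiles are shaped by smooth muscle (miR-143, miR-145), epithelium (miR-192, miR-194, the miR-200 family) and leukocytes (miR-142, miR-223). Small RNA libraries also take up fragments of other RNAs of similar length, such as rRNA, tRNA and snoRNA. The 4 miRNAs carry registry numbers of a run of bovine entries, and no target or function of theirs is taken up here. In RefSeq (assembly ARS-UCD2.0, used for names and neighbours only), bta-miR-2887 has 2 gene copies: MIR2887-1 lies between LOC112442278 and LOC112443213, and MIR2887-2 lies within the pseudogene LOC112444681, followed by the rRNA genes LOC112444653 and RN18S1. Reads of the 2 copies cannot be told apart in the table. MIR2889 lies within the protein-coding gene ZSWIM6. MIR2892 lies between TMTC4 and the lncRNA gene LOC132346727. No entry for MIR2904 was found in RefSeq, so its neighbours are not given.

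All 4 were rare. Together they made up 1902 counts in the 60 libraries, or 11.3 CPM of all counts. Library totals ranged from 659627 to 13942283 counts in SS steers and from 535373 to 19346766 in NS steers. Levels are given as CPM, each count divided by the total of its library and scaled to a total of 1000000, on which 1 count was worth 0.576 CPM at the median total. A count of 0 allows up to 3 counts, which is 5.60 CPM in the smallest library and 0.155 CPM in the largest, so that absence cannot be read from a 0 in a shallow library. These limits and the Poisson intervals given for single libraries cover counting error only. Markers of epithelium (8 of 8 in the table) and smooth muscle (4 of 4) were present in every group, none of them at 0 throughout. The epithelial markers summed to 1512, 2477 and 2803 CPM in the proximal jejunum, distal jejunum and descending colon libraries of SS299, against a median of 143164 CPM over all libraries. In those 3 libraries bta-miR-2889 and bta-miR-2892 were at or below 0.304 CPM, and the tests between regions and between SS and NS are therefore also given without SS299.

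bta-miR-2904 was the most widely detected of the 4. It had 903 counts, a median of 3.39 CPM, a highest value of 59.4 CPM and a count of 0 in 2 of 60 libraries. bta-miR-2889 had a median of 1.21 CPM, a highest value of 28.0 CPM and 11 libraries at 0. For bta-miR-2892 there were 491 counts, a median of 1.04 CPM, a highest value of 67.3 CPM and 13 libraries at 0. bta-miR-2887 was the rarest, with 214 counts, a median of 0.699 CPM, a highest value of 12.4 CPM and 11 libraries at 0. Many of the detected values rested on 1 to 3 counts, in 39 libraries for bta-miR-2887, 25 for bta-miR-2889, 24 for bta-miR-2892 and 13 for bta-miR-2904.

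The coefficient of variation of CPM (SD over mean, 60 libraries) was 2.22 for bta-miR-2892, 1.62 for bta-miR-2889, 1.52 for bta-miR-2887 and 1.47 for bta-miR-2904. Among the 399 miRNAs with a count in at least 30 libraries, whose median was 0.746, these values ranked 8, 22, 27 and 33. Rare miRNAs vary more by counting alone. The variance that counting would give made up 23.2% of the variance of bta-miR-2887, 10.7% of that of bta-miR-2889, 6.0% of that of bta-miR-2904 and 3.32% of that of bta-miR-2892. On log2(CPM + 1), the steer accounted for 48.6% of the sum of squares of bta-miR-2904 and 41.9% of that of bta-miR-2887, while the region accounted for 2.42% and 4.17%. For bta-miR-2892 the steer accounted for 27.4% and the region for 31.9%. For bta-miR-2889 these shares were 16.9% and 21.1%, against medians of 22.8% and 10.7% over the 399 miRNAs. The share of the steer was above that of the region for bta-miR-2904 and bta-miR-2887 and below it for bta-miR-2892 and bta-miR-2889. By their number alone, 10 steers take up more of a sum of squares than 6 regions. The share of the steer also holds the SS against NS difference, as each steer has 1 phenotype.

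**Figure D1:**
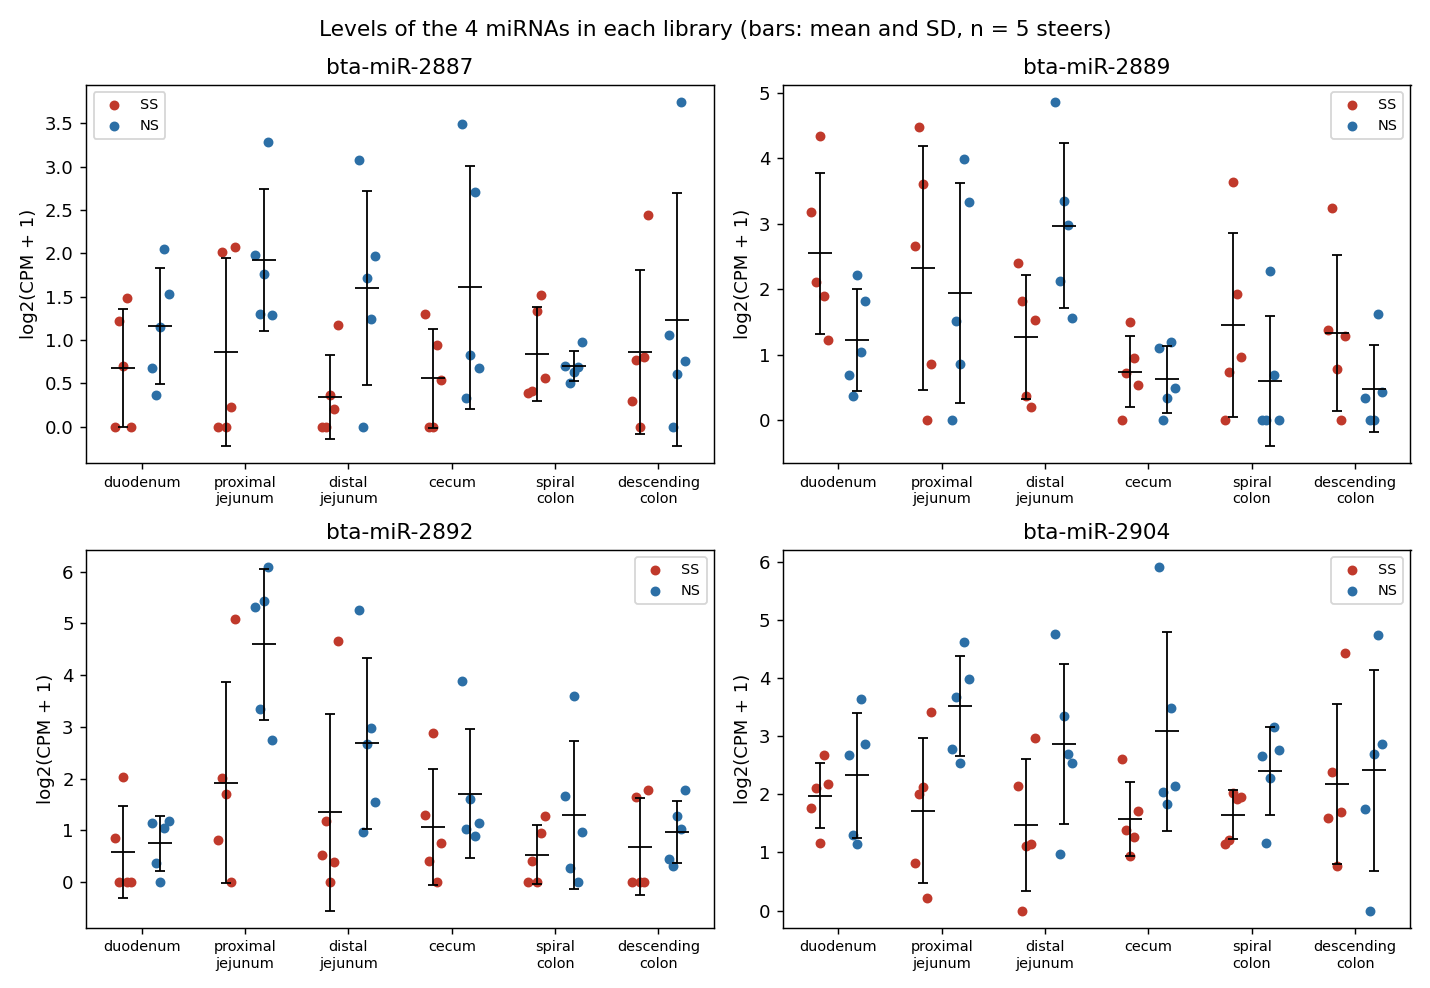
Level of each miRNA on a log2(CPM + 1) scale in every library, by region, with SS (red) left of NS (blue); points are steers, and the horizontal mark and bar are the mean and SD of the log2 values (n = 5). bta-miR-2892 peaks in the jejunum. For all 24 pairs of miRNA and region the ranges of the SS and NS libraries overlap, a description for which no share over all miRNAs was computed.

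The question of the region comparison was whether a miRNA differs along the intestine. It was tested with an F test over all 60 libraries, in which 126 of 404 miRNAs passed an FDR of 10% (31.2%). bta-miR-2892 (adjusted p = 0.000141) and bta-miR-2889 (adjusted p = 0.0280) passed, and bta-miR-2887 (adjusted p = 0.314) and bta-miR-2904 (adjusted p = 0.349) did not. With the steer as a block, 144 miRNAs passed (35.6%), and the adjusted p-values were 4.86e-05 for bta-miR-2892 and 0.0216 for bta-miR-2889. Without SS299 they were 3.26e-05 and 0.00695. More miRNAs passed there over the whole table, 180 of 403 against 126 of 404, so smaller values were not particular to these 2. Both passed with each of the 10 steers left out, where from 61 (without NS242) to 180 (without SS299) of all miRNAs passed.

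bta-miR-2892 was highest in the proximal jejunum, at 20.3 ± 23.5 CPM (mean ± SD, n = 10 steers), followed by the distal jejunum at 7.88 ± 12.7 CPM. The other regions were at 2.77 ± 4.24 CPM (cecum), 1.71 ± 3.35 CPM (spiral colon), 1.0 ± 1.03 CPM (descending colon) and 0.771 ± 0.973 CPM (duodenum), and neighbouring means in this order differed by less than the larger of their SDs. The proximal jejunum exceeded the distal jejunum in 9 of 10 steers and the duodenum in 7 of 10. Single steers carried the high values. In the proximal jejunum, bta-miR-2892 was at 0.762, 3.03, 2.25, 0 and 33.1 CPM in SS steers, against 39.1, 9.20, 42.4, 67.3 and 5.75 CPM in NS steers, listed for SS274, SS287, SS294, SS299 and SS310 and for NS108, NS152, NS165, NS242 and NS745, an order kept below. All 5 NS libraries were above 4 of the 5 SS libraries, but SS310 fell among the NS values and the ranges overlapped. The NS242 value rests on 54 counts (95% Poisson interval 50.6 to 87.9 CPM). In the distal jejunum its values were 0.428, 1.27, 0, 0.304 and 24.4 CPM in SS steers, against 37.4, 0.962, 5.35, 6.86 and 1.94 CPM in NS steers. SS310 and NS108 stood far above the other libraries of their groups.

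Distal to the jejunum bta-miR-2892 was low in most steers. Cecum values were 1.46, 0.320, 6.36, 0 and 0.679 CPM in SS steers, against 13.7, 1.03, 2.05, 0.853 and 1.20 CPM in NS steers, and those of the spiral colon were 0, 0.333, 0, 0.932 and 1.43 CPM in SS steers, against 2.18, 0.207, 11.03, 0 and 0.962 CPM in NS steers. SS294 and NS108 were highest in the cecum, and NS165 in the spiral colon. The descending colon had 0, 2.10, 0, 0 and 2.44 CPM in SS steers, against 0.362, 0.238, 1.41, 1.03 and 2.44 CPM in NS steers, and the duodenum had 0.804, 0, 3.09, 0 and 0 CPM in SS steers, against 1.21, 0.291, 0, 1.05 and 1.27 CPM in NS steers. Apart from the jejunum, no region had a median above 1.12 CPM over its 10 libraries.

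bta-miR-2889 was higher in the small intestine, at 6.53 ± 7.38 CPM in the proximal jejunum, 5.85 ± 8.28 CPM in the distal jejunum and 4.27 ± 5.69 CPM in the duodenum (mean ± SD, n = 10 steers). It was at 2.04 ± 3.58 CPM in the spiral colon, 1.48 ± 2.55 CPM in the descending colon and 0.692 ± 0.593 CPM in the cecum. Neighbouring means again differed by less than the larger of their SDs, and the proximal jejunum exceeded the cecum in 8 of 10 steers, the descending colon in 7 and the spiral colon in 5. Duodenal libraries had 8.04, 3.31, 19.2, 2.71 and 1.32 CPM in SS steers, against 0.604, 0.291, 3.65, 1.05 and 2.53 CPM in NS steers. SS294 was the highest, and 3 SS values and 2 NS values lay in the range shared by both groups. The proximal jejunum had 5.34, 21.2, 11.2, 0 and 0.806 CPM in SS steers, against 0, 1.84, 0.800, 14.96 and 9.11 CPM in NS steers, and the distal jejunum had 4.28, 2.54, 0.288, 0.152 and 1.87 CPM in SS steers, against 28.0, 3.37, 9.17, 6.86 and 1.94 CPM in NS steers. SS287 and NS242 were highest in the proximal jejunum, and NS108 in the distal jejunum with 15 counts (95% Poisson interval 15.7 to 46.2 CPM). Levels in the cecum were 0, 0.641, 1.82, 0.930 and 0.452 CPM in SS steers, against 1.14, 0, 0.257, 1.28 and 0.40 CPM in NS steers. In the spiral colon bta-miR-2889 was at 0, 0.666, 11.5, 2.80 and 0.953 CPM in SS steers, against 0, 0, 3.86, 0.608 and 0 CPM in NS steers, and in the descending colon at 1.58, 8.42, 0.711, 0 and 1.43 CPM in SS steers, against 0.258, 0, 0, 2.07 and 0.348 CPM in NS steers. There, SS294 and SS287 stood above all other libraries of their regions, and 5 of the 10 NS libraries of the 2 colon regions were at 0.

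bta-miR-2904 had no region that stood out. Its mean was 9.0 ± 17.9 CPM in the cecum, 7.81 ± 7.34 CPM in the proximal jejunum, 6.97 ± 8.86 CPM in the descending colon, 5.93 ± 7.69 CPM in the distal jejunum, 4.19 ± 3.19 CPM in the duodenum and 3.54 ± 2.21 CPM in the spiral colon (mean ± SD, n = 10 steers). The first place of the cecum came from NS108, and the cecum exceeded the proximal jejunum in 3 of 10 steers. Duodenal values of bta-miR-2904 were 2.41, 3.31, 1.24, 5.42 and 3.52 CPM in SS steers, against 5.43, 1.46, 1.22, 11.6 and 6.34 CPM in NS steers. Those of the proximal jejunum were 0.762, 3.03, 3.37, 0.168 and 9.68 CPM in SS steers, against 5.91, 11.8, 4.80, 23.7 and 14.9 CPM in NS steers. Only SS310 reached the NS range there. The distal jejunum had 3.42, 0, 1.15, 1.22 and 6.87 CPM in SS steers, against 26.1, 0.962, 9.17, 5.49 and 4.85 CPM in NS steers, and the cecum had 5.11, 1.60, 0.908, 1.40 and 2.26 CPM in SS steers, against 59.4, 3.10, 2.57, 10.2 and 3.40 CPM in NS steers. In the cecum NS108 had 52 counts (95% Poisson interval 44.4 to 77.9 CPM), and SS274 alone of the SS libraries reached the NS range. For the spiral colon the values were 1.22, 1.33, 3.07, 2.80 and 2.86 CPM in SS steers, against 5.30, 1.24, 3.86, 7.90 and 5.77 CPM in NS steers, and for the descending colon 2.04, 4.21, 0.711, 2.24 and 20.5 CPM in SS steers, against 2.38, 0, 5.47, 25.9 and 6.27 CPM in NS steers. SS310 and NS242 were far above the rest in the descending colon. The SS310 value rests on 286 counts (95% Poisson interval 18.2 to 23.0 CPM), 31.7% of all bta-miR-2904 counts in the table.

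bta-miR-2887 was low throughout, with region means between 0.767 ± 0.530 CPM in the spiral colon and 2.34 ± 2.58 CPM in the proximal jejunum (mean ± SD, n = 10 steers). In the cecum it was at 1.46, 0, 0, 0.930 and 0.452 CPM in SS steers, against 10.3, 0.258, 0.770, 5.55 and 0.600 CPM in NS steers. Steers NS108 and NS242 were high there, as they were for bta-miR-2904. In the descending colon it was at 0.226, 0.702, 0, 0.748 and 4.45 CPM in SS steers, against 1.09, 0, 0.529, 12.4 and 0.697 CPM in NS steers. NS242 (12 counts) and SS310 (62 counts) stood out, again as for bta-miR-2904. Proximal jejunum levels were 0, 3.03, 0, 0.168 and 3.23 CPM in SS steers, against 2.95, 1.47, 2.40, 8.73 and 1.44 CPM in NS steers, and distal jejunum levels were 0, 0, 0.288, 0.152 and 1.25 CPM in SS steers, against 7.47, 0, 2.29, 1.37 and 2.91 CPM in NS steers. The highest NS library of these regions was NS242 in the first and NS108 in the second, and SS310 was the highest SS library in both. Duodenum libraries had 0, 1.32, 0.619, 1.81 and 0 CPM in SS steers, against 0.604, 0.291, 1.22, 3.15 and 1.90 CPM in NS steers, and spiral colon libraries had 0.305, 0.333, 1.53, 1.86 and 0.476 CPM in SS steers, against 0.624, 0.414, 0.552, 0.608 and 0.962 CPM in NS steers. None of these rested on more than 3 counts.

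**Figure D2:**
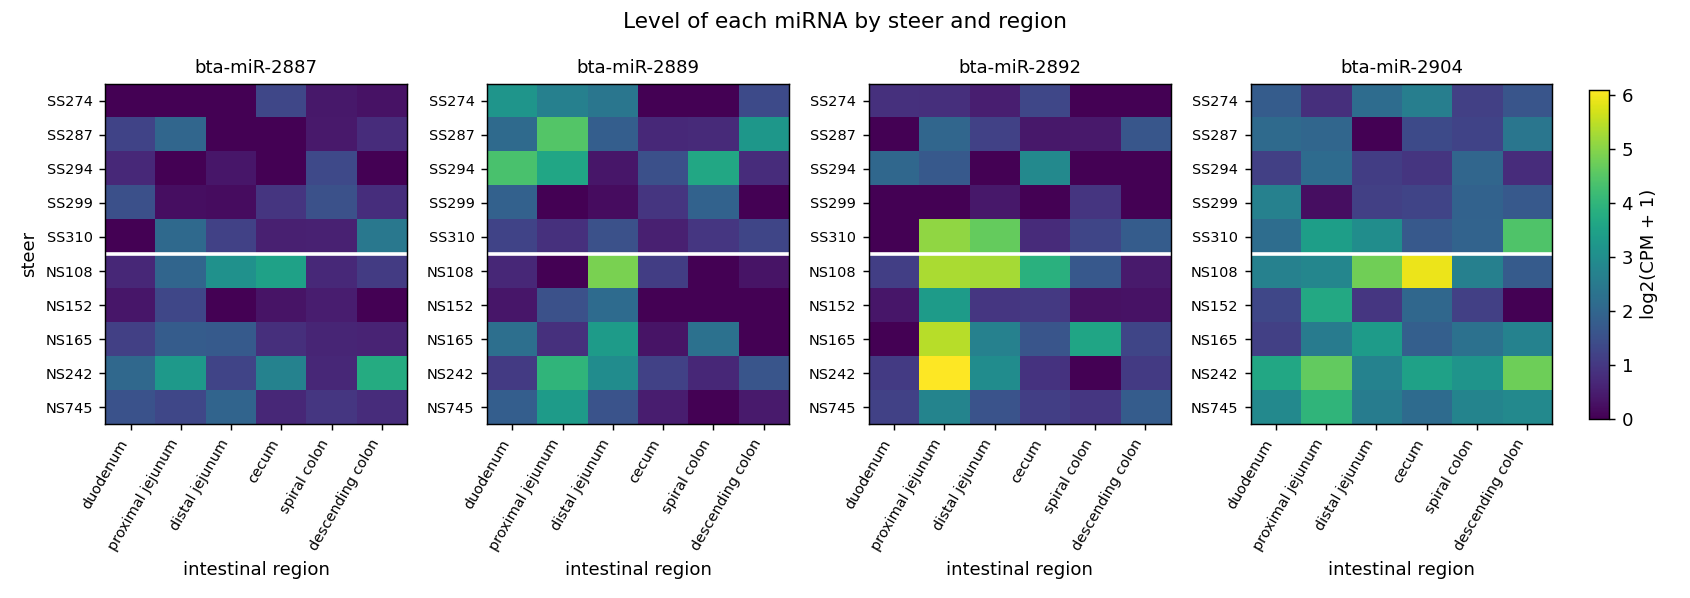
Level of each miRNA, as colour on a log2(CPM + 1) scale, by steer (rows, SS above the white line and NS below it) and region (columns). Steers NS108, NS242 and SS310 hold 9 of the 10 highest bta-miR-2887 libraries and 8 of the 10 highest bta-miR-2904 libraries.

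The high libraries gathered in a few steers. For bta-miR-2904, the 10 highest libraries came from NS242 (4), NS108 (2), SS310 (2), NS152 (1) and NS745 (1). For bta-miR-2887 they came from NS242 (4), NS108 (3), SS310 (2) and SS287 (1). The bta-miR-2892 libraries in this rank were from NS108 (3), SS310 (2), NS165 (2), NS242 (2) and NS152 (1). bta-miR-2889 was spread over more steers, with SS294 (3) and SS287 (2) contributing most. The mean bta-miR-2904 level of a steer over its 6 regions ranged from 1.74 to 7.62 CPM in SS and from 3.09 to 17.4 CPM in NS, with SS310 as the only SS steer inside the NS range.

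The question put to the SS and NS libraries was which miRNAs differ with the shedding of E. coli O157. A miRNA was tested in a region if 3 or more SS or NS steers had more than 1 CPM of it, with the quasi-likelihood test of edgeR, and p-values were adjusted over all of them (Benjamini-Hochberg). Of the 24 pairs of miRNA and region, 18 passed this filter. Not tested were bta-miR-2887 (cecum and both parts of the colon), bta-miR-2889 (cecum and spiral colon) and bta-miR-2892 (spiral colon). None of the 18 passed an FDR of 10%. Over all miRNAs, those past it were 0.293% (duodenum), 0.282% (proximal jejunum), 0.592% (distal jejunum), 0.292% (cecum), 0.898% (spiral colon) and 0% (descending colon). At an unadjusted p under 0.05 there were 7 of the 18, against 154 of 2041 tests over all miRNAs (7.55%). The 4 miRNAs were chosen by their spread over these same libraries and share steers, so this count is no test of them. Among the 7, bta-miR-2889 in the descending colon and bta-miR-2887 in the distal jejunum passed the filter only through the phenotype with the higher mean. The corresponding counts of the 18 past the FDR were 1 with the exact test of edgeR (0.931% of all tests), 1 with DESeq2 (1.47%) and 0 with limma-voom (0%). Without SS299 none of the 18 passed, and 4 had an unadjusted p under 0.05. Over all miRNAs, 0 or 1 passed in a region without this steer. An unadjusted p under 0.05 was found there for 9 of 327 (descending colon) to 34 of 336 (distal jejunum). The largest move of a log2 fold change of the 18 was 0.40, and the sign turned in 1, bta-miR-2892 in the duodenum. With no filter, bta-miR-2887 in the cecum had a log2 fold change of -2.54 ± 0.90 (SE; adjusted p = 0.527), close in size to that of bta-miR-2904 there.

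**Figure D3:**
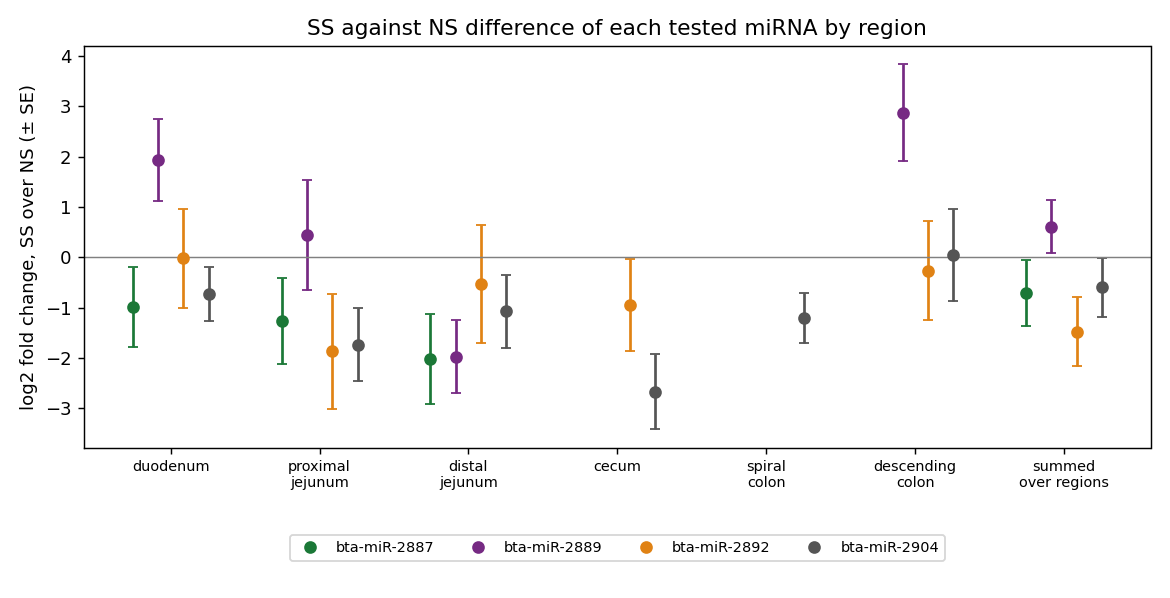
Difference of SS over NS for each miRNA that passed the filter, as a log2 fold change with its SE (vertical axis), by region and on counts summed over the regions (horizontal axis; n = 5 steers per phenotype). bta-miR-2904 in the cecum is the lowest value, -2.67 ± 0.75, and bta-miR-2889 in the descending colon the highest, 2.87 ± 0.96; neither passed an FDR of 10%.

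The difference closest to the threshold was that of bta-miR-2904 in the cecum. Its mean was 2.26 ± 1.67 CPM in SS steers and 15.7 ± 24.6 CPM in NS steers (SD, n = 5 each), with a log2 fold change of -2.67 ± 0.75 (SE; adjusted p = 0.259). The exact test of edgeR gave an adjusted p of 0.0506, with 0.877% of all miRNAs past the FDR, and DESeq2 gave 0.0250, with 1.17% past it. The paper, with the exact test and the same FDR, reports bta-miR-2904 as lower in the cecum of SS, at a smaller adjusted p. Over the other alternatives the adjusted p ranged from 0.150 to 0.552. Without NS108, the library with 59.4 CPM, the log2 fold change was -1.65 ± 0.49 (SE; adjusted p = 0.251). Elsewhere its mean was also lower in SS than in NS in each of the 5 regions, with log2 fold changes of -1.73 ± 0.73 (SE; adjusted p = 0.401) in the proximal jejunum, -1.21 ± 0.49 (SE; adjusted p = 0.451) in the spiral colon, -1.07 ± 0.72 (SE; adjusted p = 0.571) in the distal jejunum and -0.73 ± 0.54 (SE; adjusted p = 0.895) in the duodenum. Without SS310 the value of the proximal jejunum was -2.91 ± 0.67 (SE; adjusted p = 0.153). Without NS108 that of the distal jejunum was -0.59, and without NS242 that of the duodenum was -0.39. In the descending colon the fitted value was 0.040 ± 0.91 (SE; adjusted p = 0.993), near 0, and its sign depended on the scaling and on the steers included.

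The values of bta-miR-2892 depended on single steers. Its log2 fold change was -1.87 ± 1.14 (SE; adjusted p = 0.505) in the proximal jejunum and -0.53 ± 1.17 (SE; adjusted p = 0.885) in the distal jejunum. Without SS310 these were -4.75 ± 1.03 (SE; adjusted p = 0.150) and -3.53 ± 1.02 (SE; adjusted p = 0.191). Its values in the cecum, -0.95 ± 0.91 (SE; adjusted p = 0.716), and descending colon, -0.26 ± 0.97 (SE; adjusted p = 0.992), also missed the threshold, and that in the duodenum was close to 0, -0.018 ± 0.98 (SE; adjusted p = 0.999). Without NS108 the log2 fold changes were 0.41 (distal jejunum) and -0.25 (cecum). Without SS294 it was -2.46 in the cecum and -1.86 in the duodenum, and without SS310 it was -1.54 in the descending colon. bta-miR-2887 had -2.01 ± 0.89 (SE; adjusted p = 0.481) in the distal jejunum, -1.26 ± 0.85 (SE; adjusted p = 0.541) in the proximal jejunum and -0.99 ± 0.80 (SE; adjusted p = 0.895) in the duodenum. Leaving out SS310 gave -2.20 in the proximal jejunum and -0.63 in the duodenum, and leaving out NS242 gave -0.79 in the proximal jejunum.

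bta-miR-2889 had fitted differences of both signs. It was 2.87 ± 0.96 (SE; adjusted p = 0.992) in the descending colon and 1.93 ± 0.82 (SE; adjusted p = 0.882) in the duodenum, against -1.97 ± 0.72 (SE; adjusted p = 0.306) in the distal jejunum and 0.44 ± 1.09 (SE; adjusted p = 0.915) in the proximal jejunum. The duodenal value was 0.94 ± 0.71 (SE; adjusted p = 0.830) without SS294, the library with 19.2 CPM, and that of the proximal jejunum ranged from -0.21 without SS287 to 0.98 without NS242. The F test of whether the SS against NS difference varies with the region, with the steer as a term, gave bta-miR-2889 an unadjusted p of 0.0214 and an adjusted p of 0.948. None of the 4 miRNAs passed this test, which 0% of the 404 miRNAs passed, and bta-miR-2889 was the only one of the 4 with an unadjusted p under 0.05.

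On the summed counts of each steer, 0.583% of 343 miRNAs passed, and 0 of the 4 did, with 0 of the 4 at an unadjusted p under 0.05 and 0 past the FDR with the exact test of edgeR, DESeq2 or limma-voom. The log2 fold changes were -1.48 ± 0.69 (SE; adjusted p = 0.484) for bta-miR-2892, -0.71 ± 0.65 (SE; adjusted p = 0.782) for bta-miR-2887, -0.60 ± 0.58 (SE; adjusted p = 0.782) for bta-miR-2904 and 0.61 ± 0.53 (SE; adjusted p = 0.782) for bta-miR-2889. These sums are weighted towards deep libraries, and the descending colon library of SS310 held 286 of the 339 bta-miR-2904 counts of that steer. With the deepest 2 libraries of the series left out, the descending colon libraries of NS108 and SS310, bta-miR-2904 passed at -1.65 ± 0.38 (SE; adjusted p = 0.0664), with 2.04% of all miRNAs past the FDR. It also passed without the steer SS310, at -1.68 ± 0.32 (SE; adjusted p = 0.0644), with 2 of 339 miRNAs past the FDR. The same 2 changes moved bta-miR-2887 to -1.69 ± 0.53 (SE; adjusted p = 0.189) and -1.73 ± 0.55 (SE; adjusted p = 0.182). Without SS310 bta-miR-2892 was at -2.52 ± 0.61 (SE; adjusted p = 0.103), and without SS294 bta-miR-2889 was at 0.20. With each region weighted equally (limma on the mean log2(CPM + 1) of a steer) none of the 4 passed, with bta-miR-2904 at -1.01 ± 0.40 (SE, adjusted p = 0.689). An unadjusted p under 0.05 was found for 3 of the 4 (bta-miR-2887, bta-miR-2892 and bta-miR-2904), against 21 of 343 over all miRNAs. This count is no test of the 4 either, as they were chosen by their spread.

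bta-miR-2887 and bta-miR-2904 varied together. Over the 60 libraries, which share their totals and come from 10 steers, Spearman's rho was 0.75 and Pearson's r on log2(CPM + 1) was 0.83. Within a region (n = 10 steers) rho ranged from 0.50 to 0.83, and it was 0.58 in the SS libraries and 0.77 in the NS libraries (30 each). Without the 2 libraries farthest from the median of bta-miR-2887, r was 0.78. Of the 10 highest libraries of each miRNA, 8 were shared. The ratio of their summed counts, bta-miR-2904 over bta-miR-2887, was 4.22 over all libraries and lay between 4.06 (cecum) and 5.18 (spiral colon) in the 6 regions, the others being 4.07 (duodenum), 4.11 (proximal jejunum), 4.13 (descending colon) and 4.5 (distal jejunum). Between steers the ratio ranged more widely, from 2.63 in NS242 to 8 in SS274, which had only 4 counts of bta-miR-2887. At a depth thinned to the smallest library, where 32 libraries had no bta-miR-2887 count, rho was 0.43.

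Over all libraries, bta-miR-2892 followed these 2 less closely, and bta-miR-2889 least. For bta-miR-2892, rho was 0.58 with bta-miR-2904 and 0.46 with bta-miR-2887, positive in 6 of 6 regions for both. The values of bta-miR-2889 were 0.30 with bta-miR-2892, 0.22 with bta-miR-2887 and 0.20 with bta-miR-2904. Within regions the last ranged from -0.53 to 0.54. By phenotype, and with bta-miR-2887, rho was 0.070 in SS and 0.51 in NS libraries for bta-miR-2889 and 0.19 in SS and 0.50 in NS libraries for bta-miR-2892 (30 each). With bta-miR-2904 it was 0.27 in SS and 0.46 in NS libraries for bta-miR-2889 and 0.33 in SS and 0.52 in NS libraries for bta-miR-2892. Of the 10 highest libraries, 5 were shared by bta-miR-2892 with bta-miR-2904, and 3 by bta-miR-2889 with bta-miR-2904.

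**Figure D4:**
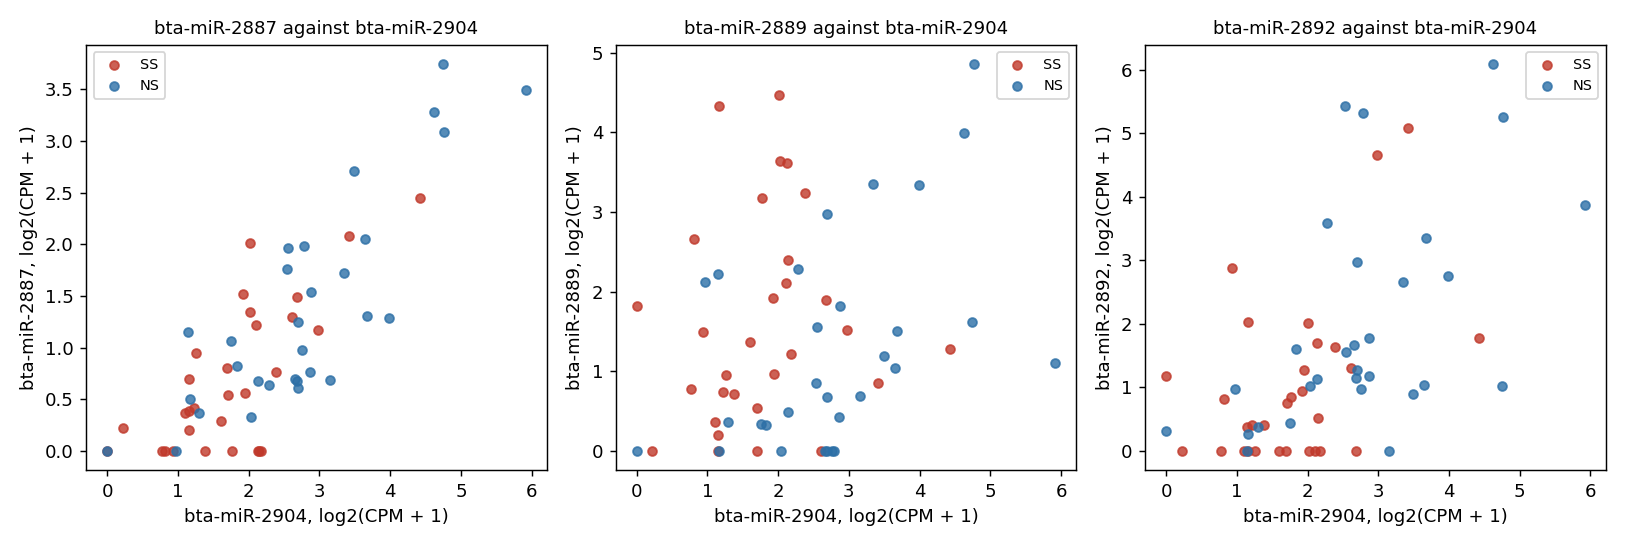
Levels of bta-miR-2887, bta-miR-2889 and bta-miR-2892 (vertical axes) against bta-miR-2904 (horizontal axes), all as log2(CPM + 1), with 1 point per library, SS in red and NS in blue (30 each). The points of bta-miR-2887 follow those of bta-miR-2904 most closely (r = 0.83), those of bta-miR-2889 least (r = 0.24).

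Over all libraries, levels tended to be lower in deeper ones. Spearman's rho of the level with the library total (60 libraries) was -0.61 for bta-miR-2889, -0.44 for bta-miR-2887, -0.35 for bta-miR-2892 and -0.33 for bta-miR-2904, and Pearson's r with the log10 total was -0.59, -0.39, -0.38 and -0.30 in the same order. This was common to the table: the median rho of the 399 miRNAs was -0.40, with a middle range from -0.62 to -0.13, and smooth muscle markers, the most abundant of the lists, were higher in deeper libraries (rho = 0.77). Within regions (n = 10 steers) the rho of bta-miR-2889 ranged from -0.69 to -0.24 and that of bta-miR-2892 from -0.75 to 0.25, with 2 regions positive. Without the 2 libraries farthest from the median total, again those of NS108 and SS310 in the descending colon, r was -0.64 for bta-miR-2889 and -0.44 for bta-miR-2904. The 11 libraries at 0 for bta-miR-2889 had a median total of 3275823 counts, and its 49 libraries with a count one of 1645224. For bta-miR-2892 the order was the other way, with 1645233 counts for libraries at 0 and 1813109 for libraries with a count.

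**Figure D5:**
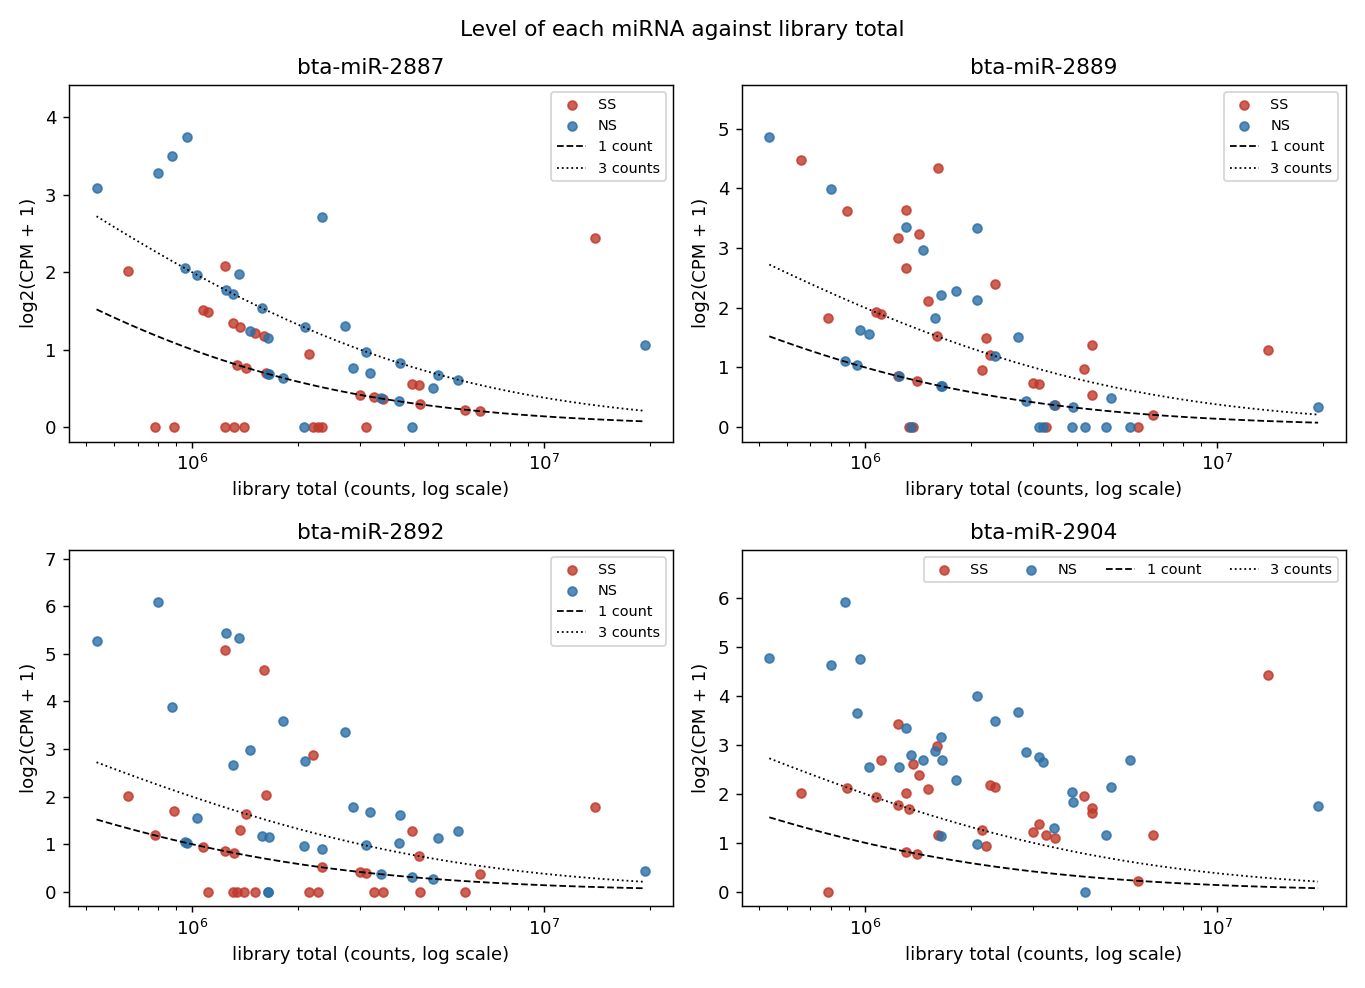
Level of each miRNA as log2(CPM + 1) against the library total in counts (logarithmic axis), with 1 point per library, SS in red and NS in blue; the dashed and dotted curves are the levels of 1 and 3 counts. Many values of bta-miR-2887 lie on or between the curves, and the descending colon library of SS310, at 13942283 counts, lies above both curves in all 4 panels.

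The miRNAs most like each of the 4 in their pattern were found by Spearman's rho of CPM over the 60 libraries among 398 others. Nearest to bta-miR-2889 were bta-miR-425-3p (0.78), bta-miR-17-5p (0.75), bta-miR-146a (0.74), bta-miR-106b (0.73) and bta-miR-142-3p (0.72), the last a leukocyte marker. All of these also fell with the library total (rho from -0.81 to -0.69). The summed leukocyte markers (4 of 4 in the table) had a rho of 0.69 with bta-miR-2889, from 0.10 to 0.66 within regions, and -0.71 with the total. Their group medians ranged from 4086 to 9570 CPM in SS and from 2424 to 11168 CPM in NS, and their part in the levels of bta-miR-2889 was not tested.

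Closest to bta-miR-2892 were bta-miR-2411-3p (0.70), bta-miR-2424 (0.68), bta-miR-2890 (0.67), bta-miR-677 (0.64) and bta-miR-2484 (0.63). For bta-miR-2904 they were bta-miR-2887 (0.75), bta-miR-2892 (0.58), bta-miR-423-5p (0.53), bta-let-7d (0.53) and bta-miR-2484 (0.53). Those of bta-miR-2887 were bta-miR-2904 (0.75), bta-miR-107 (0.65), bta-miR-2484 (0.59), bta-miR-320a (0.57) and bta-miR-2411-3p (0.55). bta-miR-2484 was in 3 of these 4 lists. The median rho of the other miRNAs was 0.24 with bta-miR-2887, 0.30 with bta-miR-2889, 0.17 with bta-miR-2892 and 0.19 with bta-miR-2904. With the sums of the other marker lists, rho ranged from 0.27 to 0.51 for epithelium and from -0.47 to -0.19 for smooth muscle. It ranged from 0.11 to 0.40 for erythrocytes and from 0.22 to 0.43 for endothelium. Of single epithelial markers, 6 of 8 were positive with bta-miR-2889 and with bta-miR-2892, and 8 of 8 with bta-miR-2887 and with bta-miR-2904. Of smooth muscle markers, 1 of 4 was positive with bta-miR-2889 and 1 with bta-miR-2892. Within regions, the smooth muscle sum had a rho from -0.77 to 0.48 with bta-miR-2892. These relations were not tested either.

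The 4 miRNAs and others with registry numbers near theirs were looked at as 1 list. The table holds 11 miRNAs from bta-miR-2881 to bta-miR-2904, of which bta-miR-2886 and bta-miR-2888 had 1 count each, while bta-miR-2898 (2936 counts) and bta-miR-2890 (2554 counts) were the most abundant. Between SS and NS, none of the 3 to 7 tested in a region passed the FDR. Their median log2 fold change was 0.041 (duodenum), -1.62 (proximal jejunum), -0.80 (distal jejunum), -0.86 (cecum), 0.15 (spiral colon) and 0.040 (descending colon), against medians from -0.025 to 0.11 over all miRNAs tested in a region. Between regions 4 of 8 passed, against 31.2% of all miRNAs: bta-miR-2889 and bta-miR-2892, described above, and bta-miR-2885 and bta-miR-2890. Of the bovine miRNAs whose human namesakes lie in snoRNA or snRNA genes, 4 of 5 were in the table and 2 of 3 tested, bta-miR-1248 and bta-miR-1291, passed the test between regions, which 31.2% of all miRNAs passed, too few for a statement on the list. Their summed level had a rho of 0.57 with bta-miR-2887 and 0.33 to 0.35 with the other 3 miRNAs. Within regions it ranged from -0.11 to 0.97 for bta-miR-2887 and from -0.024 to 0.42 for bta-miR-2889. The range was -0.26 to 0.87 for bta-miR-2892 and -0.56 to 0.56 for bta-miR-2904. With the library total the sum had a rho of -0.58, and these relations were not tested.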

How the data were processed

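The authors isolated total RNA from frozen tissue, prepared TruSeq small RNA libraries, sequenced them on an Illumina HiSeq instrument and assigned the reads to bovine miRNAs with sRNAtoolbox. They deposited raw read counts of 608 miRNAs in 60 libraries. The submitters' processing notes list Bowtie and edgeR with no version; for the genome build and the miRBase release behind these counts, no source used here gives a name. Reads of the rectum were not analysed here. CPM was computed on library totals, which ranged from 535373 to 19346766 counts, and reads carry no molecular identifiers. The 5 SS and 5 NS libraries of a region were fitted with edgeR 4.0.16 in R 4.3.3 (TMM, two-sided quasi-likelihood test, FDR of 10%, filter of more than 1 CPM in 3 or more SS or NS steers). The exact test of edgeR, used by the authors, was run as an alternative. The same test was used on the summed counts of the steers, and regions and the region by phenotype terms were tested with F tests over 60 libraries. Alternatives were DESeq2 1.42.0, limma-voom (limma 3.58.1), other size factors, no filter, an FDR of 5%, 1 fit of all libraries, thinning to the smallest total, and leaving out each steer. Those without the 2 deepest libraries, or with only libraries in which both of 2 miRNAs had a count, were chosen after seeing the data. Correlations used scipy 1.17.1 in Python 3.11.15. The quasi-likelihood tests, with their F tests, were also run on simulated counts. Changes were planted only above a minimum expected count, with no effect shared by the libraries of a steer. The exact test, DESeq2 and limma were not run on simulated counts, and the lowest counts were not covered.

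The 4 miRNAs, the lists of markers and the tests were chosen with earlier results of these data known. Named are the 4 miRNAs, the 5 most like each of them by Spearman's rho among miRNAs with a count in at least 30 libraries, and list members past the FDR. The labels pair the regions by steer: deviations from group means had a mean correlation of 0.134 within steers, positive in 116 of 150 pairs, and of -0.012 between steers. No 2 libraries of a group agreed within sampling noise (chi-square per degree of freedom of at least 43.9 in 120 pairs). In the separate fit of each region and on summed counts, libraries came from different steers, so those p-values measure the spread between steers. The main F test between regions had no term for the steer and treated all libraries as independent, although those of a steer were correlated. The F tests with the steer as a block or term measure the spread within steers.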

Additional observations from a re-analysis of the deposited data

Results flagged for a closer look

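Within the groups of 5 steers, a library far from the other 4 by Dixon's criterion (95% level) was found in 19 of 48 groups (39.6%), against 16.1% of 4788 groups over the 399 miRNAs with a count in at least 30 libraries. Chance flags about 1 in 20 groups, for values with a normal spread, which these low counts do not have. The 4 miRNAs were chosen by their spread, so this count describes that choice and is no test of it. In each case the library was the highest of its group, and 4 of these were for bta-miR-2887, 5 for bta-miR-2889, 7 for bta-miR-2892 and 3 for bta-miR-2904.

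SS310 stood above the other SS libraries in 5 groups. It had 33.1 CPM of bta-miR-2892 in the proximal jejunum and 24.4 CPM in the distal jejunum. In the descending colon it had 20.5 CPM of bta-miR-2904 and 4.45 CPM of bta-miR-2887, and in the distal jejunum 1.25 CPM of bta-miR-2887, which rests on 2 counts. NS242 stood above the other NS libraries of the descending colon, with 25.9 CPM of bta-miR-2904, 12.4 CPM of bta-miR-2887 and 2.07 CPM of bta-miR-2889 (2 counts), and of the proximal jejunum with 8.73 CPM of bta-miR-2887. NS108 did so in the cecum, with 59.4 CPM of bta-miR-2904 and 13.7 CPM of bta-miR-2892, and in the distal jejunum, with 37.4 CPM of bta-miR-2892 and 28.0 CPM of bta-miR-2889.

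The other libraries were those of SS294, with 11.5 CPM of bta-miR-2889 in the spiral colon and, of bta-miR-2892, 6.36 CPM in the cecum and 3.09 CPM in the duodenum. SS287 had 8.42 CPM of bta-miR-2889 in the descending colon. NS165 had 11.03 CPM of bta-miR-2892 and 3.86 CPM of bta-miR-2889 in the spiral colon. The 2 values from 2 counts have wide 95% Poisson intervals, 0.151 to 4.51 CPM for SS310 and 0.251 to 7.47 CPM for NS242. These overlap the intervals of the other libraries of their groups, so a difference from those libraries stays uncertain.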

How the results depend on the processing

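Among the SS against NS comparisons, the count of the 4 miRNAs past the FDR moved to 1 in the cecum with the exact test of edgeR and with DESeq2, and to 1 on summed counts without the 2 deepest libraries; this was bta-miR-2904 each time, with log2 fold changes of -2.70, -2.69 and -1.65. Leaving out each steer gave 0 in every region and 0 to 1 on summed counts (1 without SS310, where 2 of 339 miRNAs passed). Between regions 2 passed under each alternative, and with the steer as a block both kept their call (adjusted p = 4.86e-05 and 0.0216). Over all miRNAs, from 61 to 180 passed between regions under these alternatives. bta-miR-2892 in the duodenum was 0.027 with DESeq2, 0.012 with DESeq2 size factors, 0.18 on library totals alone and 0.020 in 1 fit of all libraries, with -1.86 to 0.35 when a steer was left out. It was 0.018 in the descending colon on library totals alone, and -3.53 to 0.41 in the distal jejunum with a steer left out. bta-miR-2904 in the descending colon was -0.052 with the exact test, -0.23 on library totals alone and -1.26 to 0.33 with a steer left out. bta-miR-2889 in the proximal jejunum was -0.061 with limma-voom and -0.21 to 0.98 with a steer left out. Library totals alone moved the median log2 fold change of all miRNAs to 0.32 in the cecum, 0.23 in the duodenum, 0.20 in the spiral colon, -0.30 in the distal jejunum and -0.11 in the proximal jejunum.

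Thinning to the smallest library gave a rho of 0.43 for bta-miR-2887 and bta-miR-2904, and of -0.017 for bta-miR-2887 and bta-miR-2889; leaving out each steer gave 0.71 to 0.78 for the first pair. With the library total, rho within regions was -0.63 (duodenum), -0.67 (spiral colon) and -0.024 (descending colon) for bta-miR-2887. For bta-miR-2889 it was -0.36 (duodenum), -0.69 (proximal jejunum), -0.36 (cecum) and -0.24 (descending colon). For bta-miR-2892 it was -0.044 (duodenum), -0.75 (distal jejunum), 0.14 (spiral colon) and 0.25 (descending colon), and for bta-miR-2904 -0.079 (proximal jejunum), -0.19 (cecum) and -0.0061 (descending colon). Scaling by TMM gave bta-miR-2887 a coefficient of variation of 1.24. The cause of these differences was not tested. Low counts were most common for bta-miR-2887, where 39 of the 49 detected values rest on 1 to 3 counts.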
